A study of Mus musculus with 3 samples.

Results

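This account follows 10 genes that keep lymphocytes at rest or mark the naive state: Foxo1, Foxo3, Foxp1, Klf2, Klf3, Bach2, Satb1, Tcf7, Lef1 and Btg1. They were taken by gene symbol from a table of 33700 genes, each symbol had 1 row, and 10 of 10 had a mean of at least 1 RPKM (reads per kilobase of gene, scaled to the size of the library). The cells were splenic B cells of C57BL/6 mice that lacked CD43, a surface protein carried by activated B cells and most T and myeloid cells. All spent 3 days in culture with lipopolysaccharide, a bacterial activator of B cells, and interleukin-4, a T cell cytokine. The 3 groups, of 1 library each, received the vehicle DMSO, JQ1+ (80 nM) or flavopiridol (30 nM) for those 3 days. JQ1 displaces BET bromodomain proteins from acetylated chromatin, and flavopiridol inhibits cyclin-dependent kinases, Cdk9 among them. Both are used to lower transcription, so the comparisons ask how the resting programme stood in activated B cells under each drug. The age, sex and number of mice are not given in the labels, no resting B cells are among the samples, and the culture label of the drug samples repeats the DMSO wording.

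Resting lymphocytes are small, non-dividing cells whose quiet state is kept actively. FOXO factors sit in the nucleus while phosphoinositide 3-kinase signalling is low, where they switch on genes of homing and cell cycle arrest, and AKT sends them out of the nucleus on activation. In T cells KLF2 keeps the sphingosine phosphate receptor gene S1pr1 on so that resting cells recirculate. Elsewhere in this set, FOXP1 holds naive cells quiescent, BACH2 represses the plasma cell regulator gene Prdm1, and BTG1 binds the CCR4-NOT complex that shortens mRNA tails. TCF7 and LEF1 bind beta-catenin in the Wnt pathway and, with the chromatin organiser SATB1, are best known from T cell development.

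Since each treatment has 1 library, the spread between cultures is unknown and no test was made. The verbs rose and fell are kept for a difference of at least 1 in log2 of (RPKM + 1), which is 2-fold, and all shares of genes refer to the 14790 genes whose mean reached 1 RPKM. Ratios of plain RPKM carry 95% exact binomial intervals, which speak to counting error alone. The deposited counts summed to between 50184508 and 59786847 per library. The median log2 change of the 14790 genes was -0.08 for JQ1+ and 0.13 for flavopiridol against DMSO, and -0.21 for JQ1+ against flavopiridol. RPKM is relative to each library's total, so a loss shared by all RNA would not show, and in such bulk samples fewer cells of a type cannot be told apart from less RNA per cell. Of the genes called, 44.8% were lower with flavopiridol than DMSO, against 58.2% after rescaling by the median of ratios, and 77.0% against 57.4% were lower in JQ1+ than flavopiridol.

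Markers of B cells were high: Cd79b stood between 1545 and 2127 RPKM, and 11 of 11 B cell markers were measured. Of 18 T cell markers 4 had a mean of at least 1 RPKM, namely Thy1, Cd2, Lck and Cd247. The other 14, Cd3d, Cd3e, Cd3g, Cd4 and Bcl11b among them, summed to 4.57 RPKM in DMSO, 4.40 in JQ1+ and 6.31 in flavopiridol. Cd3e, a defining subunit of the T cell receptor complex, was at 0.07 RPKM in DMSO and listed at 0 in both drug libraries. Among the remaining lists, 1 of 7 cytotoxic, 2 of 9 myeloid, 4 of 6 dendritic and 1 of 5 erythroid markers were measured. The myeloid marker Emr1 rose with flavopiridol, at 0.922 RPKM in DMSO, 0.801 in JQ1+ and 9.47 in flavopiridol. The other measured one, Csf1r, was highest in DMSO, at 6.41, 4.03 and 3.95. Lyz2, with a mean below 1 RPKM, stood at 0.181, 1.94 and 0.044. The part of such cells in the members' values was not tested.

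The outcome in brief was 1 member that fell with each drug and several that stood higher without reaching 2-fold. Satb1 fell 6.85-fold with JQ1+ and 2.42-fold with flavopiridol. Foxp1, Klf2 and Btg1 stood higher with both drugs, by ratios of 1.52 to 1.96. Lef1 stood lower with both, Foxo3 and Klf3 were higher with both by at most 1.46 times, and Bach2 stayed within 1.16 times across the libraries. Foxo1 was at 1.31 times DMSO with JQ1+ and 1.02 times with flavopiridol, where the interval includes 1. In JQ1+ 0 of 10 members rose and 1 fell, where 1.98% of all genes rose and 5.29% fell. In flavopiridol 0 rose and 1 fell, where 3.55% of all genes rose and 2.88% fell. The members' median log2 change was 0.23 with JQ1+ and 0.28 with flavopiridol, beside -0.08 and 0.13 for all genes. These shares and medians of all genes are also the ones to set beside the counts and medians of each list below. By counting error alone, 6 members were higher, 2 lower and 2 undecided in each drug library against DMSO. Foxo1 was among the 6 with JQ1+ only. Bach2 was among them with flavopiridol only, at a log2 change of 0.15 beside the all-gene median of 0.13. The matching share of all genes was not computed, so nothing particular to the members is read from these counts.

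**Figure D1:**
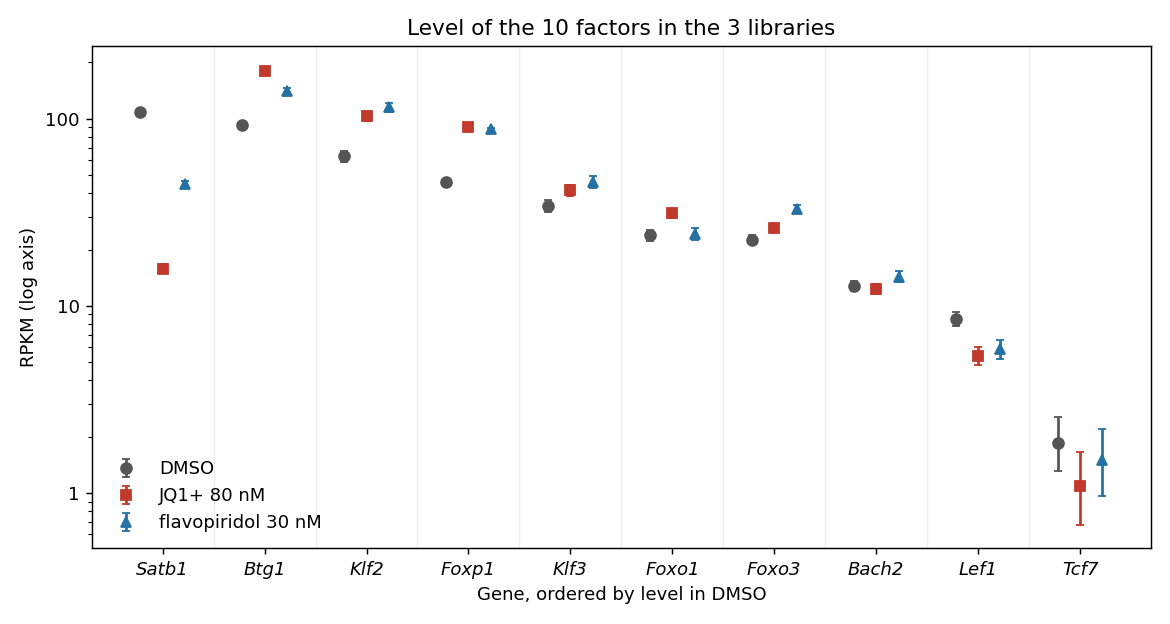
RPKM on a log axis for each of the 10 genes in the DMSO (circle), JQ1+ (square) and flavopiridol (triangle) libraries, with bars for the 95% Poisson counting interval of 1 library. Satb1 is the highest of the 10 in DMSO at 108 RPKM and the seventh in JQ1+ at 15.8, while Btg1, Klf2 and Foxp1 are higher in both drug libraries than in DMSO.

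In the DMSO library the levels, which are per length, ran from 108 RPKM for Satb1 to 1.85 for Tcf7. Between them came Btg1 at 92.9, Klf2 at 62.9, Foxp1 at 46.0, Klf3 at 34.2, Foxo1 at 23.8, Foxo3 at 22.5, Bach2 at 12.8 and Lef1 at 8.51 RPKM. Only Foxo1 and Foxo3 were neighbours whose counting intervals overlapped. Satb1 was therefore the most abundant of these factors in vehicle-treated activated B cells, where 13.2% of measured genes had a higher RPKM. In JQ1+ it was passed by Btg1, Klf2, Foxp1, Klf3, Foxo1 and Foxo3, and 52.5% of measured genes had a higher RPKM. In flavopiridol it stood at 44.7 RPKM, next to Klf3 at 46.2 with overlapping intervals. Apart from Satb1 and the exchange of Foxo1 and Foxo3 in flavopiridol, the order was that of DMSO in both drug libraries.

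For the 4 members furthest from DMSO in both drug libraries, the letters upstream of a transcription start are shown because they are the DNA through which these genes are started, and because FOXO and KLF factors are themselves members. Each line is 200 bases of RefSeq sequence (GRCm38.p6) on the gene's own strand, ending 50 bases before an annotated start. The stretches are chr17:51832698-51832897 on the minus strand for Satb1, chr6:99028349-99028548 on the minus strand for Foxp1, chr8:72318812-72319011 on the plus strand for Klf2 and chr10:96616751-96616950 on the plus strand for Btg1. Of 5 starts for Satb1 and 3 for Foxp1 the one richest in G and C was taken, and the files do not say which start was used. Capitals mark the FOXO motif GTAAACA, the KLF core CACCC and the GC box GGGCGG on either strand, and neighbouring GC boxes can overlap.
Satb1: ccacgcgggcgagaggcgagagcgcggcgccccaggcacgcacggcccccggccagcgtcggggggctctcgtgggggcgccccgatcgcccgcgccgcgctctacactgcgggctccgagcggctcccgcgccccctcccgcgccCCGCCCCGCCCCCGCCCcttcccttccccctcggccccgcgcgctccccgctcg
Foxp1: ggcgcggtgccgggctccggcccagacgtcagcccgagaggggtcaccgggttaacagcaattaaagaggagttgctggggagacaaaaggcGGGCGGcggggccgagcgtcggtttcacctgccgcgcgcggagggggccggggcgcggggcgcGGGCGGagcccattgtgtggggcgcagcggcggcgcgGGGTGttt
Klf2: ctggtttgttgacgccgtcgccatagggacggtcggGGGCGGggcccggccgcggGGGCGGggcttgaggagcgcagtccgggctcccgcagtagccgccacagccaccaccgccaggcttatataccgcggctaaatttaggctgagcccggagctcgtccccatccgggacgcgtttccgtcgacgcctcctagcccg
Btg1: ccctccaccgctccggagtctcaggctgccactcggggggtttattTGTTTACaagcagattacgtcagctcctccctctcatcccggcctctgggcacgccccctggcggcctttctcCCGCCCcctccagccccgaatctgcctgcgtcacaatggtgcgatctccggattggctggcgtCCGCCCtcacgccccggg

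The 4 stretches were 66.5% to 84.5% G and C, where the median of 32851 such stretches of all genes was 51.5%. For Satb1 and Foxp1 the choice of the richest start favours a high value, and the all-gene median has no such choice. Their other stretches held 51.5% to 57.0% for Satb1 and 47.0% and 62.5% for Foxp1. No exon of Satb1, Foxp1, Klf2 or Btg1 in GENCODE M21 lies in the 4 printed stretches. An exon of the opposite-strand gene model Gm6934 overlaps the printed Satb1 stretch. The FOXO motif was in the Btg1 stretch and in none of the other 19 stretches of the 10 members, where 2.58% of all stretches hold it. A GC box was in 11 of the members' 20 stretches and in 24.6% of all stretches, and Bach2 was the member without one. The KLF core was in 13 of the 20, which belong to 5 members (Foxp1, Klf3, Satb1, Tcf7 and Lef1), and in 44.4% of all stretches. Some stretches of Lef1 overlap each other, as do some of Satb1. The 20 are therefore not separate, and no excess is read from counts over them. The E-box CACGTG was in 1 of the 20, at Lef1, and in 4.34% of all stretches. The BACH and AP-1 motif TGAGTCA was in 0 of the 20 and in 3.61% of all stretches. These are matches of letters on both strands and not measured binding sites.

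Satb1, which folds chromatin into loops and recruits chromatin-modifying complexes, was the member that fell. It stood at 108 RPKM in DMSO, 15.8 in JQ1+ and 44.7 in flavopiridol. JQ1+ was the lowest library and flavopiridol lay between it and DMSO. Against DMSO the drop was 6.85-fold in JQ1+ (interval 6.47 to 7.25), and in flavopiridol it was 2.42-fold (interval 2.33 to 2.52). Between the drugs the JQ1+ level was 2.82-fold below that in flavopiridol (interval 2.65 to 3.01), and Satb1 was the 1 of 10 members past 2-fold there, where 6.87% of all genes were lower and 2.06% higher. Its log2 changes were -2.70, -1.26 and -1.44 in these comparisons. Of all measured genes 0.433% fell as far or further with JQ1+, 1.73% with flavopiridol and 2.35% between the drugs. The values behind this rest on 28748, 3760 and 9669 deposited counts.

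The genes whose log2 changes in the drug libraries lay nearest to those of Satb1, over the 3 libraries and among 9323 protein-coding genes averaging 5 RPKM or more, were Bst2, Fhad1 and Igtp. Their distances in log2 units were 0.207, 0.212 and 0.303. Bst2 went from 247 RPKM in DMSO to 43.0 in JQ1+ and 99.8 in flavopiridol, Fhad1 from 11.9 to 1.01 and 3.66, and Igtp from 84.8 to 15.0 and 31.8. Some dendritic cell markers were also highest in DMSO. The list's summed level was 90.0 RPKM in DMSO, 10.7 in JQ1+ and 35.1 in flavopiridol, of which Batf3 held 55.9, 2.98 and 11.1 and Flt3 26.6, 2.55 and 14.6. The other 2 measured markers were highest in flavopiridol, Zbtb46 at 6.63, 4.36 and 6.85 RPKM and Xcr1 at 0.918, 0.763 and 2.59. Of its 6 genes 2 fell with JQ1+ and 1 with flavopiridol, while Siglech was listed at 0 in DMSO and flavopiridol and Itgax, the CD11c gene, stood at no more than 0.03 RPKM. The part of such cells in the Satb1 result was not tested.

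**Figure D2:**
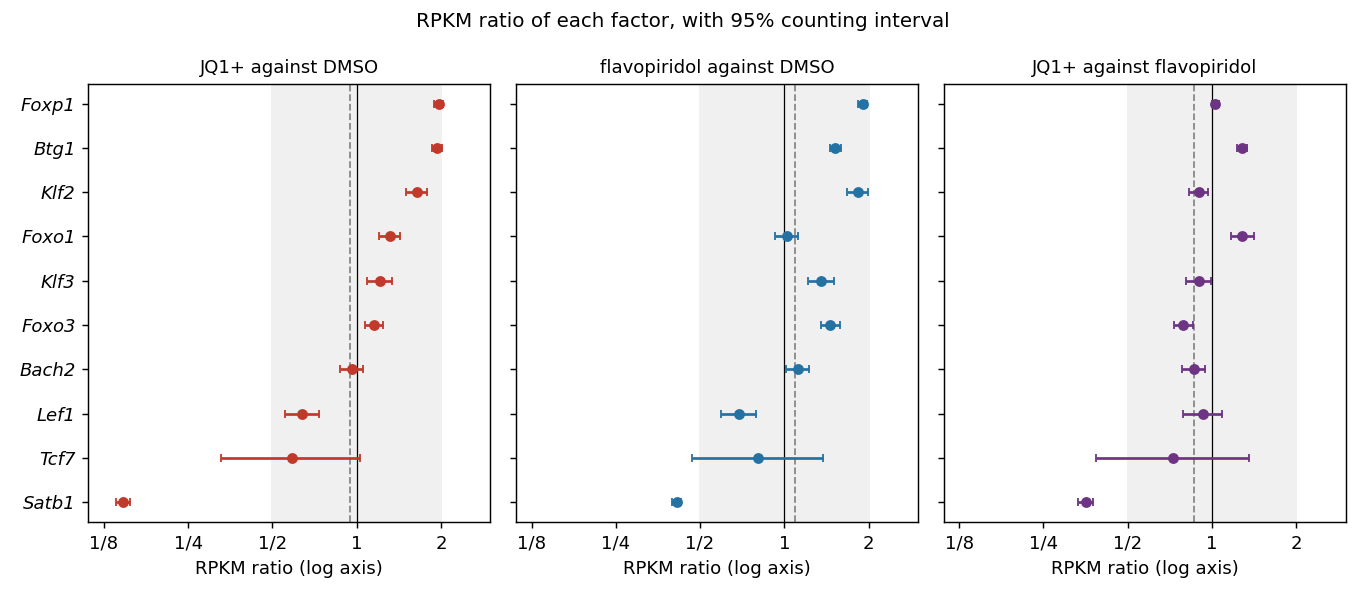
Ratio of plain RPKM for each member in the 3 comparisons on a log axis, with bars for the 95% counting interval, grey for the range within 2-fold and a dashed line at the median of all genes. Satb1 lies left of the grey range in each panel, and Foxp1 and Btg1 lie at the right edge of it for JQ1+ against DMSO, at 1.96 and 1.94.

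Foxp1, a forkhead repressor needed for B cell development and for naive cell quiescence, stood at 46.0 RPKM in DMSO, 90.3 in JQ1+ and 87.7 in flavopiridol. Both drug libraries were above DMSO and close to each other. Its level was 1.96 times that of DMSO with JQ1+ (interval 1.90 to 2.03) and 1.91 times with flavopiridol (interval 1.84 to 1.98). The JQ1+ to flavopiridol ratio was 1.03 (interval 0.998 to 1.06), which includes 1. The log2 changes of 0.96 and 0.92 missed the 2-fold rule, and 2.20% and 4.35% of all genes were as high or higher. With JQ1+ it passed 2-fold in 4 of 8 alternative settings, the rescalings by median of ratios (over all or over protein-coding genes), TMM and CPM.

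A gene model on the same strand within the Foxp1 span, Gm20696, followed the same direction, at 7.49 RPKM in DMSO, 28.0 in JQ1+ and 17.5 in flavopiridol. Whether its reads and those of Foxp1 were told apart by the authors' counting is not given in the sources used here. Gm20696 held 630, 2105 and 1201 counts, beside 13814, 24268 and 21475 for Foxp1. Of the other FOXP genes, Foxp4 stood at 20.6, 14.9 and 14.2 RPKM in DMSO, JQ1+ and flavopiridol, and Foxp3, the regulatory T cell factor gene, at 5.27, 6.39 and 6.81. Neither reached 2-fold, and Foxp4 lay on the other side of DMSO from Foxp1.

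Btg1, the antiproliferative partner of the CCR4-NOT deadenylase, stood at 92.9 RPKM in DMSO, 180 in JQ1+ and 141 in flavopiridol. JQ1+ was the highest library and DMSO the lowest. The ratio to DMSO was 1.94 with JQ1+ (interval 1.86 to 2.03) and 1.52 with flavopiridol (interval 1.45 to 1.59), and that of JQ1+ to flavopiridol was 1.28 (interval 1.23 to 1.33). Its log2 change of 0.95 with JQ1+ missed 2-fold and passed it in the same 4 of 8 alternatives as Foxp1. The paralogue Btg2 stood at 103 RPKM in DMSO, 192 in JQ1+ and 102 in flavopiridol. Btg1 was thus higher in both drug libraries, while Btg2 was at 1.86 times DMSO with JQ1+ (interval 1.76 to 1.96) and 0.989 times with flavopiridol (interval 0.927 to 1.06).

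No gene on the list for the complex through which BTG1 acts passed 2-fold. The list held 15 measured genes, those of CCR4-NOT and related deadenylation factors together with Prmt1, which is neither. Of these 15, 0 rose and 0 fell with JQ1+, where 1.98% of all genes rose and 5.29% fell. With flavopiridol 0 rose and 0 fell, where 3.55% of all genes rose and 2.88% fell. With shares this small, nothing particular to the list is read from 0 of 15. The list medians were -0.09 and 0.09, beside -0.08 and 0.13 for all genes. The members furthest from DMSO were the arginine methyltransferase gene Prmt1 (log2 changes -0.56 with JQ1+ and 0.20 with flavopiridol), the subunit gene Rqcd1 (-0.29 and 0.37), the CCR4-NOT-associated gene Tnks1bp1 (-0.24 and -0.40) and the deadenylase gene Cnot6l (-0.36 and 0.09).

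Klf2, the zinc finger factor of resting and recirculating lymphocytes, stood at 62.9 RPKM in DMSO, 103 in JQ1+ and 115 in flavopiridol. Both drug libraries were above DMSO, flavopiridol slightly more. The ratio to DMSO was 1.64 with JQ1+ (interval 1.50 to 1.79) and 1.83 with flavopiridol (interval 1.67 to 1.99). Klf3, a repressor of the same family, moved less, at 34.2, 41.3 and 46.2 RPKM, with ratios of 1.21 (interval 1.09 to 1.34) and 1.35 (interval 1.21 to 1.50). Between the drugs Klf2 and Klf3 stood at ratios of 0.897 and 0.896, beside a median of all genes that was also below 1. After rescaling by the median of ratios or TMM both signs turned, so no direction between the drugs is read for either gene.

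Among the other KLF genes, Klf6 was nearest to Klf2 in level and in direction, at 45.5 RPKM in DMSO, 80.3 in JQ1+ and 86.8 in flavopiridol. Klf10, a gene induced by TGF-beta, rose with flavopiridol, from 2.24 to 6.84 RPKM (ratio 3.06, interval 2.27 to 4.17). With JQ1+ it stood at 5.12 RPKM, 2.29 times DMSO in plain RPKM (interval 1.69 to 3.14). Its log2 change of 0.92 there missed the 2-fold rule because 1 RPKM is added before the log2. Klf7 fell with JQ1+, from 14.7 to 5.03 RPKM, 2.92-fold lower (interval 2.55 to 3.35), and stood at 11.5 with flavopiridol. Over all 18 measured relatives of the 10 factors, out of 29 listed, 0 rose and 1 fell with JQ1+ and 1 rose and 0 fell with flavopiridol. Their medians were -0.03 and 0.09, beside -0.08 and 0.13 for all genes.

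**Figure D3:**
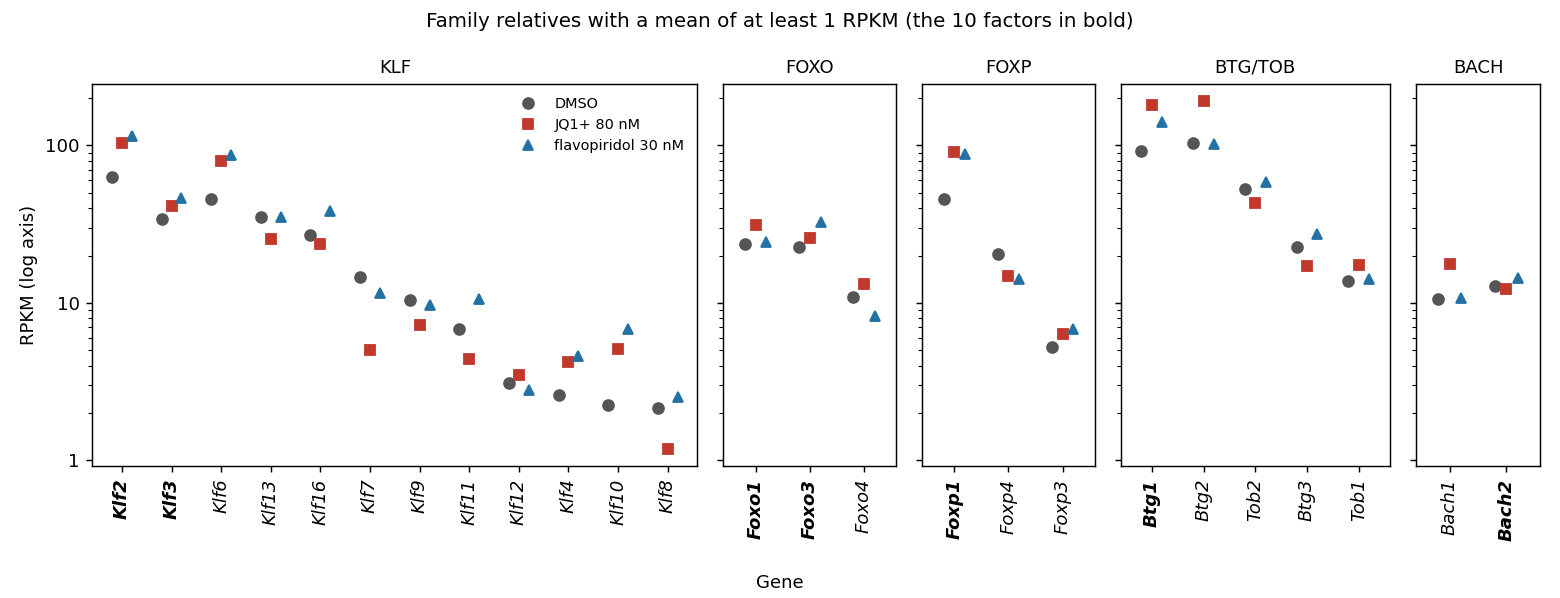
RPKM on a log axis of the measured KLF, FOXO, FOXP, BTG/TOB and BACH genes in the DMSO (circle), JQ1+ (square) and flavopiridol (triangle) libraries, with the 10 factors' names in bold. Klf2, Klf6 and Foxp1 are higher in both drug libraries, Btg2 is at 192 RPKM in JQ1+ beside 103 and 102 in DMSO and flavopiridol, and Klf7 is lowest in JQ1+ at 5.03 RPKM.

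S1pr1, the receptor gene that lets lymphocytes leave tissue and in T cells is controlled by KLF2, rose with both drugs. It stood at 20.9 RPKM in DMSO, 84.1 in JQ1+ and 53.6 in flavopiridol, 4.03 times (interval 3.63 to 4.47) and 2.57 times (interval 2.30 to 2.87) the DMSO level. Of 7 trafficking genes linked to KLF2 it was the one past 2-fold in each drug library, and the list medians were 0.05 and 0.43. The homing receptor gene Ccr7 stood at 68.6, 60.4 and 122 RPKM in DMSO, JQ1+ and flavopiridol, and the integrin gene Itgb7 at 4.34, 8.20 and 7.10. Cd69, whose protein holds S1PR1 off the surface, stood at 286, 232 and 189 RPKM, lower in both drug libraries without reaching 2-fold. The 7 genes thus did not share a direction, whereas Klf2 stood higher in both drug libraries.

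Foxo1, the FOXO gene that governs homing and recombination genes in B cells, stood at 23.8 RPKM in DMSO, 31.2 in JQ1+ and 24.3 in flavopiridol. Foxo3 stood at 22.5, 26.0 and 32.9 RPKM. The genes were at like levels in DMSO, and Foxo1 was highest in JQ1+ whereas Foxo3 was highest in flavopiridol. For Foxo1 the ratio to DMSO was 1.31 with JQ1+ (interval 1.21 to 1.43) and 1.02 with flavopiridol (interval 0.928 to 1.12). For Foxo3 it was 1.16 (interval 1.07 to 1.25) and 1.46 (interval 1.35 to 1.58). JQ1+ to flavopiridol ratios were 1.29 for Foxo1 (interval 1.17 to 1.41) and 0.791 for Foxo3 (interval 0.734 to 0.852). Relative to the median of all genes in that comparison the log2 differences were 0.56 and -0.11. Foxo4 stood at 10.9, 13.1 and 8.21 RPKM. The opposite-strand model Gm20402 overlaps Foxo1 and had 292, 374 and 369 counts beside 2780, 3266 and 2314 for Foxo1.

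FOXO activity is set by phosphorylation, which RNA does not measure, so its target and regulator genes are given by count. Of 19 measured FOXO targets out of 22 listed, 1 rose and 0 fell with JQ1+, and 3 rose and 0 fell with flavopiridol. The list medians were 0.25 and 0.27, beside -0.08 and 0.13 for all genes. S1pr1 was the one that rose with JQ1+. With flavopiridol S1pr1, the pro-apoptotic gene Bcl2l11 and the insulin receptor substrate gene Irs2 rose. Bcl2l11 stood at 81.8 RPKM in DMSO, 109 in JQ1+ and 205 in flavopiridol, and Irs2 at 26.5, 39.2 and 58.7. The stress-response gene Sesn1 stood at 11.5, 23.2 and 21.4 RPKM, with log2 changes of 0.95 and 0.84. In plain RPKM it was at 2.01 times DMSO with JQ1+ (interval 1.74 to 2.33).

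Of 21 measured genes of the phosphoinositide 3-kinase and AKT pathway that controls FOXO, Sgk1 rose with both drugs and none fell. Sgk1, an AKT-like kinase that can also phosphorylate FOXO3, stood at 1.45 RPKM in DMSO, 4.20 in JQ1+ and 5.15 in flavopiridol, 2.90 times (interval 2.10 to 4.05) and 3.55 times (interval 2.58 to 4.96). The adaptor gene Pik3ap1 stood at 182, 105 and 106 RPKM, 1.73-fold lower (interval 1.66 to 1.81) and 1.72-fold lower (interval 1.64 to 1.79), within 2-fold. The regulatory subunit gene Pik3r1 had log2 changes of 0.42 and 0.02, and the ubiquitin ligase gene Skp2 -0.32 and 0.65. The list medians were -0.04 and 0.05.

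Bach2, the repressor that delays plasma cell differentiation, had the smallest range across the libraries of the 10 members. It stood at 12.8 RPKM in DMSO, 12.3 in JQ1+ and 14.3 in flavopiridol, which was the highest library by a small margin. The ratio to DMSO was 0.959 with JQ1+ (interval 0.875 to 1.05) and 1.12 with flavopiridol (interval 1.02 to 1.22), that of JQ1+ to flavopiridol was 0.860 (interval 0.783 to 0.946), and its sign in each comparison turned in some rescalings. Its antisense model Bach2os held 386, 317 and 351 counts beside 2815, 2418 and 2559 for Bach2, and use of strand is not given in the sources used here. Bach1 stood at 10.7, 17.6 and 10.7 RPKM.

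Prdm1, the plasma cell regulator gene that BACH2 represses, rose with each drug. It went from 26.9 RPKM in DMSO to 67.2 in JQ1+ (ratio 2.50, interval 2.33 to 2.68) and 56.5 in flavopiridol (ratio 2.10, interval 1.95 to 2.27). Of 14 measured BACH2 targets and partners, 2 rose and 0 fell with JQ1+, where 1.98% of all genes rose and 5.29% fell. With flavopiridol 1 rose and 0 fell, where 3.55% of all genes rose and 2.88% fell. The list medians were 0.24 and 0.21, beside -0.08 and 0.13 for all genes. The other gene that rose with JQ1+ was Nqo1, an oxidative-stress enzyme gene, from 1.90 to 5.81 RPKM, and it stood at 4.50 with flavopiridol. The thioredoxin reductase gene Txnrd1 stood at 82.2, 133 and 132 RPKM, and the small Maf gene Maff at 3.64, 1.73 and 3.30. In plain RPKM with JQ1+, Maff was 2.11-fold lower (interval 1.30 to 3.52) and Slc7a11 2.71-fold lower (interval 1.90 to 3.93). Nqo1 with flavopiridol was at 2.37 times DMSO (interval 1.38 to 4.18). These weakly expressed genes missed the 2-fold rule because 1 RPKM is added before the log2.

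Lef1, an HMG-box factor of Wnt signalling and of early B cell precursors, stood at 8.51 RPKM in DMSO, 5.43 in JQ1+ and 5.86 in flavopiridol. Both drug libraries were below DMSO. It was 1.57-fold lower with JQ1+ (interval 1.37 to 1.81) and 1.45-fold lower with flavopiridol (interval 1.26 to 1.68), and its JQ1+ to flavopiridol ratio of 0.926 had an interval that includes 1 (0.789 to 1.09). Tcf7, which encodes TCF1, stood at 1.85, 1.08 and 1.49 RPKM on 109, 57 and 72 counts. No difference in Tcf7 was detectable at this depth: the intervals of its ratio were 0.327 to 1.03 with JQ1+ and 0.467 to 1.37 with flavopiridol. The relatives Tcf7l1 and Tcf7l2 were at no more than 0.71 RPKM. Of the 4 measured T cell markers, Thy1 stood at 268, 161 and 196 RPKM in DMSO, JQ1+ and flavopiridol, Cd2 at 33.5, 26.9 and 18.9, Lck at 20.5, 23.9 and 14.5 and Cd247 at 9.44, 8.51 and 9.26. Cd3d, Cd3e, Cd3g, Cd4 and Bcl11b were at 0.862 RPKM or less. Other T cell markers with a mean below 1 RPKM passed 1 RPKM in some library. Zap70 stood at 0.336, 0.194 and 1.51 RPKM and Lat at 0.499, 1.33 and 0.941. Cd8b1 was at 1.22, 0.468 and 0.363 RPKM and Cd5 at 0.987, 0.577 and 1.10. The summed level of the 18 T cell markers was 336 RPKM in DMSO, 224 in JQ1+ and 245 in flavopiridol, and their part in the Lef1 and Tcf7 values was not tested.

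Of 13 measured TCF and LEF partners and Wnt targets, 0 rose and 1 fell with JQ1+, and 0 rose and 1 fell with flavopiridol, with medians of -0.15 and 0.04. The gene that fell with JQ1+ was Myc, the growth regulator, and the one that fell with flavopiridol was Bcl9l, a beta-catenin cofactor gene. Bcl9l stood at 18.2 RPKM in DMSO, 16.3 in JQ1+ and 7.20 in flavopiridol, 2.52-fold lower with flavopiridol (interval 2.17 to 2.94). Its paralogue Bcl9 had log2 changes of -0.17 and -0.53, and the corepressor gene Tle1 -0.51 and 0.00. Axin2, the usual readout of beta-catenin signalling, stood at no more than 0.05 RPKM, and the beta-catenin gene Ctnnb1 at 129, 131 and 134.

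**Figure D4:**
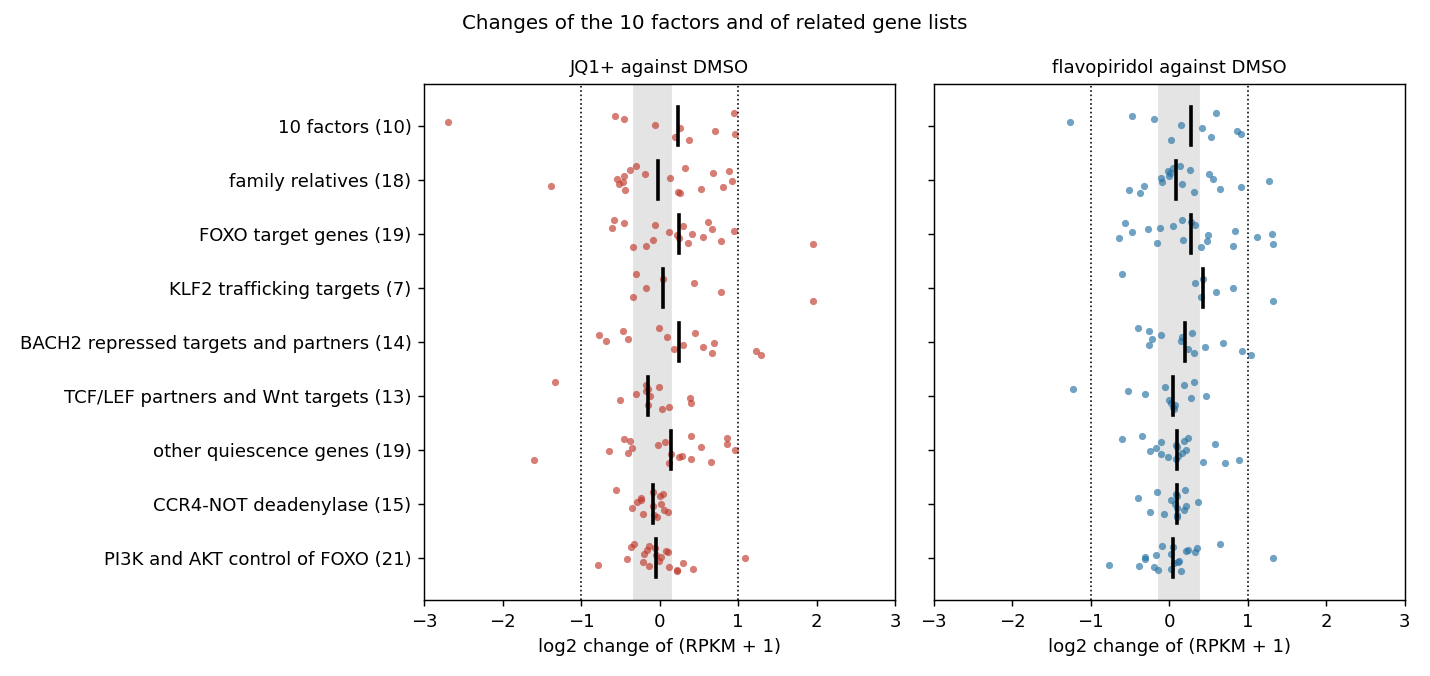
Log2 change of (RPKM + 1) of each measured gene in the 10 factors and 8 related lists for JQ1+ (left) and flavopiridol (right) against DMSO, with black bars for list medians, grey for the middle quartiles of all genes and dotted lines at the 2-fold rule. Most points lie within 2-fold, Satb1 is the leftmost point of the left panel at -2.70, and S1pr1, a member of both the FOXO and KLF2 lists, is the rightmost at 1.96.

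The remaining quiescence genes were cell cycle inhibitors, growth-pathway brakes and naive-state factors. Of 19 measured, besides the 10 factors, 0 rose and 1 fell with JQ1+, and 0 rose and 0 fell with flavopiridol, with medians of 0.14 and 0.09. Cdkn1a, the p21 gene, was the one that fell with JQ1+, standing at 14.7 RPKM in DMSO, 4.18 in JQ1+ and 28.0 in flavopiridol. Near the 2-fold line with JQ1+ were the MYC antagonist gene Mxd4 (log2 change 0.96), the retinoblastoma gene Rb1 (0.86) and Vsir (0.86), a checkpoint receptor gene needed for naive T cell quiescence. With flavopiridol these had log2 changes of 0.21, 0.58 and 0.23.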

How the data were processed

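RNA was measured in 3 libraries, 1 each for DMSO, JQ1+ and flavopiridol, and groups were taken from the treatment label. Per the labels, RNA was extracted with Trizol and ribosomal RNA removed, so RNA without poly(A) tails is included. Per the file headers, each table pairs a raw, whole-number count with an RPKM, for which the authors divided by gene length and library size. Build mm9 is named in the submitters' processing notes. How reads were aligned, counted and assigned to a strand, and with which annotation, is not given in the sources used here.

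A library total behind the RPKM values was recovered from counts and GENCODE M21 exon lengths, which matched within 0.1% for 45.9% to 46.2% of well-counted genes. Counts summed to 2.84, 2.72 and 2.92 times that total in DMSO, JQ1+ and flavopiridol. The reason for this gap is not given, so the counts were not assumed to be independent fragments. They were divided by these values for the exact conditional binomial 95% intervals, which cover counting error only. Of rows sharing a symbol (94 symbols) the one highest on average was kept, which left 33605 symbols, of which 14790 had a mean of at least 1 RPKM. Changes are log2 of RPKM + 1, a pseudocount that shrinks the changes of weakly expressed genes, and a size of at least 1 was called. With 1 library per group no count model was fitted. TMM factors came from edgeR 4.0.16. The call rule and intervals were tried on simulated data with Poisson counting error alone, which cannot show how they behave under spread between cultures.

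The 10 members and the lists were chosen with earlier results of these data known. Named genes were all members, up to 4 measured genes per list with the largest change against DMSO, and the 3 genes nearest to a member past 2-fold by Euclidean distance of their log2 changes. Axin2, Ctnnb1, Bach1, Foxo4, Foxp3, Foxp4, Slc7a11, Tcf7l1, Tcf7l2 and the overlapping gene models lie outside that rule. They were added after their values were seen. Some genes within the rule or the lists are not reported here. Vsir was matched by Ensembl identifier and Hbb-b1 was not matched. Promoter sequences were matched by symbol to RefSeq (GRCm38.p6) for 10 of 10 members, and no position was converted to mm9. The figures and analysis used Python 3.11.15.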

Additional observations from a re-analysis of the deposited data

How the results depend on the processing

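The 7 alternatives planned were pseudocounts of 0.1 and 0.5, a minimum of 5 RPKM and none, rescaling by the median of ratios, TMM, and CPM; a median of ratios over protein-coding genes alone was chosen after seeing the data. Satb1 fell in all 8 alternatives in each comparison. With JQ1+ against DMSO, 3 members instead of 1 passed 2-fold under the median of ratios, TMM, CPM and the protein-coding median of ratios, the additions being Foxp1 and Btg1. The members' median log2 change for JQ1+ against flavopiridol turned from -0.16 to 0.075 under the median of ratios, 0.10 under TMM and 0.085 under the protein-coding version, while these settings moved the median of all genes by 0.21, 0.24 and 0.22. For flavopiridol against DMSO it went from 0.28 to 0.12 under TMM, 0.15 under the median of ratios and 0.14 under its protein-coding version, with shifts of all genes by -0.16, -0.13 and -0.13. Signs of changes within 2-fold turned in some settings for Bach2 in each comparison, for Foxo1 with flavopiridol, and for Klf2, Klf3 and Lef1 between the drugs. The minimum of 5 RPKM left out Tcf7. Genes called with JQ1+ numbered 1075, against 1647 with a pseudocount of 0.1 and 609 at 5 RPKM. With flavopiridol they numbered 951, against 1472, 485 and, by CPM, 573, and between the drugs 1320, against 738 at 5 RPKM and 767 by CPM. No paired analysis was possible because each group has 1 library, which also leaves no replicate to leave out. Depth limits Tcf7 most, at 57 to 109 counts.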
